A study of Rattus norvegicus with 8 samples.

Results

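Serpins are a family of proteins that mostly inhibit serine proteases. An inhibitory serpin offers the protease a flexible loop as bait and, once the loop is cut, changes its own shape and traps the enzyme. A few members of the family have no inhibitory action and serve as chaperones or secreted signals. Kunitz inhibitors are unrelated in structure and block serine proteases by plugging their active site. In brain, both kinds restrain proteases of coagulation, fibrinolysis, complement and growth factor activation, which can cleave matrix and receptors around cells.

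The genes described here are 8 named protease inhibitors: the serpins Serpina5, Serpina3n, Serpine2, Serpinf1, Serping1, Serpinh1 and Serpini1, and the Kunitz inhibitor Spint1. The set was chosen partly from the measured difference in level between the 2 groups of these arrays, so their differences between the groups are given as a description, with no p, and nothing is read from how many of them pass a threshold. Array probes were assigned to them by RefSeq accession, which gave 8 probes for 7 of the 8 genes, out of 41012 probes on the array. No probe was assigned to Serpine2 (protease nexin-1), and it was not analysed here. Of the 7, 6 were bright enough to enter the comparison across 21677 genes, of which 5952 carry a gene symbol.

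RNA of the cerebral cortex was profiled on Agilent arrays in Wistar rats aged 8 weeks, with 1 animal per array, in a group of 4 called Rice and a group of 4 controls. At 7 days of age the Rice animals had the left carotid artery tied and cut under ether, and then breathed 8% oxygen for 1 h at 33 °C, which is a model of neonatal hypoxic-ischemic brain injury. The cortex taken was that of the hemisphere opposite the tied artery in Rice animals, and the same side in controls, which had no insult. The labels mention no sham operation. Bulk cortex cannot separate fewer cells of a type from less RNA per cell.

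Levels are log2 processed intensities minus the array's own 75th percentile, so a level of 0 is the brightness at that percentile. The Rice arrays all lay on 1 slide with 1 scan and the control arrays on another, and the effects of slide, scan and insult therefore cannot be told apart. Precision is limited by 4 arrays a group. Between 57.7% and 66.2% of probes were well above background on each array, and no probe was saturated. Control 1 stood apart, with a 75th percentile of 234.2 against 436.1 to 510.2 on the other 7 arrays. Its correlations with those arrays were 0.942 to 0.954, and those among the other 7 were 0.973 to 0.990. Rice 2 stood apart in tissue markers: 9 of 12 meningeal fibroblast markers were tested, and their mean log2 level was 2.75 there, against -0.50 to 0.47 on the other Rice arrays and -1.09 to 0.18 on control arrays. Neuronal markers, of 1 of the cell types of the labelled tissue, had mean log2 levels of 2.28 to 2.36 on Rice arrays and 2.26 to 2.63 on control arrays. All 7 tested neuronal markers were well above background on every array, which testing already required in at least 1 group.

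The stretches just before the gene start of 3 members are shown first, because these are the members whose Rice and control levels did not overlap: Serpina5, lower in Rice cortex, and Serpinf1 and Serpinh1, both higher. Each is the 250 bases before the start given by RefSeq on the GRCr8 assembly, read 5′ to 3′ on the gene's strand. They are chr6:128787831-128788080 on the plus strand for Serpina5, chr10:60760899-60761148 on the minus strand for Serpinf1, and chr1:163062977-163063226 on the minus strand for Serpinh1. Capitals mark matches to any of 5 short motifs searched on both strands.
Serpina5: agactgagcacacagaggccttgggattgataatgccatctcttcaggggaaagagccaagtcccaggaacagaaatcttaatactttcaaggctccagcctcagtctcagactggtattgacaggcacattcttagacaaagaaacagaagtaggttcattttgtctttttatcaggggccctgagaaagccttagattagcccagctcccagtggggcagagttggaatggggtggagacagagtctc
Serpinf1: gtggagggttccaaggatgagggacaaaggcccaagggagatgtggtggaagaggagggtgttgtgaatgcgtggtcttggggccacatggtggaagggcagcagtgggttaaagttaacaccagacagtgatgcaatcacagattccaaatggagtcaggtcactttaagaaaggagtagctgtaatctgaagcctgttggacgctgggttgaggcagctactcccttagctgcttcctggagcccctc
Serpinh1: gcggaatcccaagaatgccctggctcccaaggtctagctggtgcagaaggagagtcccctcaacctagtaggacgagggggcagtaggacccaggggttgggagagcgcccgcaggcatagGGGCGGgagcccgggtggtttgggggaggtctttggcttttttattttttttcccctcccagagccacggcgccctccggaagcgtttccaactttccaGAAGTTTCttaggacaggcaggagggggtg
The motifs were the TATA box TATAAA, the GC box GGGCGG, the CCAAT box CCAAT, the heat shock element core GAANNTTC and the interferon-gamma activated site core TTCNNNGAA. Their matches did not overlap in these windows. Serpinh1 held a GC box match, GGGCGG, that began 129 bases before the start, and a heat shock core match, GAAGTTTC, that began 30 bases before it. Of 33469 RefSeq windows of the same length, 30.5% held the GC box and 7.23% the heat shock core. The TATA box was held by 12.9% of these windows, the CCAAT box by 34.0% and the interferon-gamma site by 7.67%. None of the 5 motifs was found in the Serpina5 and Serpinf1 windows. A match describes the letters of the window and was not measured as a binding site.

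Among the 6 members tested, Serpina5 had the widest gap between the groups and was lower in Rice cortex. Limma called 0.918% of all 21677 genes at an adjusted p under 0.05, 0.724% as lower. The members were picked with this contrast in view, so the 1 of 6 past that threshold, Serpina5, is no test of it. That count was 0 without Rice 1, without Rice 4, with the array median as the scale and with the replicate number as a block. Levels did not overlap between the groups for 3 of the 6, of which 2 were higher and 1 lower in Rice cortex, beside 14.2% of all genes tested (5.97% higher and 8.24% lower). The median log2 difference of the 6, Rice minus control, was 0.25, and that of all genes tested was -0.03.

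Serpina5 encodes the protein C inhibitor, a heparin-dependent serpin that blocks activated protein C, thrombin and several other serine proteases. Its log2 level was -1.98, -1.79, -1.81 and -2.13 in Rice animals 1 to 4, against -0.99, -0.91, -0.54 and -0.48 in control animals 1 to 4. Every Rice cortex was below every control cortex, and 0.79 log2 units separated the highest Rice value from the lowest control value. The mean was -1.93 ± 0.16 in Rice and -0.73 ± 0.26 in control cortex (SD, n = 4 each). The log2 difference was -1.19 (SE 0.156), which leaves the Rice level at 0.437 of the control level. It measured -1.24 without Rice 2, -1.28 without control 1 and -1.33 without both.

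Spint1 encodes HAI-1, a membrane-bound Kunitz inhibitor of matriptase and of the activator of hepatocyte growth factor (HGF). Rice cortices measured -2.10, -2.68, -2.10 and -1.89, and control cortices -1.97, -1.13, -1.19 and -0.93. The Rice values lay low as a group, and control 1 alone fell among them. The means were -2.19 ± 0.34 in Rice and -1.31 ± 0.46 in control cortex (SD, n = 4 each), a log2 difference of -0.89 (SE 0.261). Without control 1 the difference was -1.11.

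**Figure D1:**
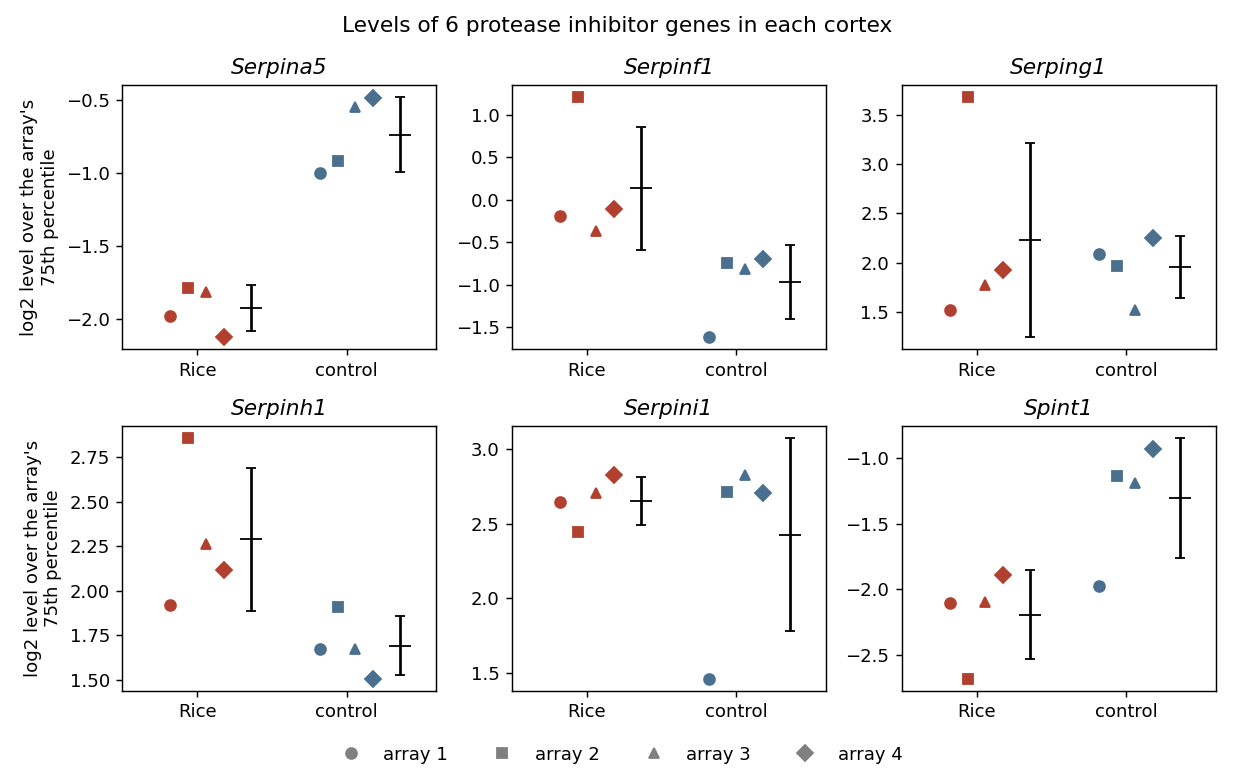
Log2 level over the array's 75th percentile (y axis, a separate scale in each panel) for the 6 tested members in Rice and control cortex. Each marker is 1 animal, its shape gives the animal's number in its group, and the bar beside each group is the mean with the SD (n = 4). The groups are apart for Serpina5, Serpinf1 and, by a small margin, Serpinh1, and Rice 2 and control 1 are the arrays farthest from their groups in several panels.

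Serpinf1 and Serpinh1 were the members whose Rice values all lay above the control values. Serpinf1 encodes pigment epithelium-derived factor, a secreted serpin without inhibitory action that is known for supporting neurons and restraining vessel growth. Its log2 levels were -0.19, 1.21, -0.37 and -0.10 in Rice animals, against -1.62, -0.74, -0.81 and -0.70 in controls. Rice 2 was the highest and control 1 the lowest array, and even the lowest Rice value exceeded the highest control value by 0.33. Serpinf1 averaged 0.14 ± 0.73 in Rice and -0.97 ± 0.44 in control cortex (SD, n = 4 each). The log2 difference of 1.10 (SE 0.376) was 0.74 without Rice 2, 0.89 without control 1 and 0.53 without both. The groups did not overlap in these subsets, which was bound to hold, since they did not overlap with every array included. Without both arrays the SDs were 0.14 in Rice and 0.06 in control cortex (n = 3 each). The arrays left out were those farthest from their groups, so smaller SDs had to follow.

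Serpinh1 encodes the collagen chaperone of the endoplasmic reticulum, which binds newly made collagen chains and inhibits no protease. It measured 1.92, 2.85, 2.26 and 2.12 in Rice animals, against 1.68, 1.91, 1.68 and 1.51 in controls. The groups were separated by only 0.01 log2 units, between Rice 1 and control 2. The means were 2.29 ± 0.40 in Rice and 1.69 ± 0.17 in control cortex (SD, n = 4 each), and the log2 difference was 0.60 (SE 0.206). It was 0.41 without Rice 2, 0.59 without control 1 and 0.40 without both.

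Serping1 encodes the C1 inhibitor, which shuts off the complement proteases C1r and C1s and also plasma kallikrein. Its brighter probe measured 1.52, 3.68, 1.77 and 1.93 in Rice animals and 2.08, 1.96, 1.52 and 2.25 in controls. Rice 2 alone stood above all other arrays, and the remaining 3 Rice values lay within the control range. The means were 2.22 ± 0.99 in Rice and 1.95 ± 0.31 in control cortex (SD, n = 4 each). The log2 difference was 0.27 (SE 0.456) and turned to -0.21 without Rice 2. The dimmer probe gave -2.86, -0.92, -2.53 and -2.47 in Rice animals and -3.47, -2.50, -2.62 and -2.44 in controls. It again had Rice 2 at the top, with control 1 at the bottom, and its difference of 0.56 was 0.14 without Rice 2 and -0.10 without both arrays.

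**Figure D2:**
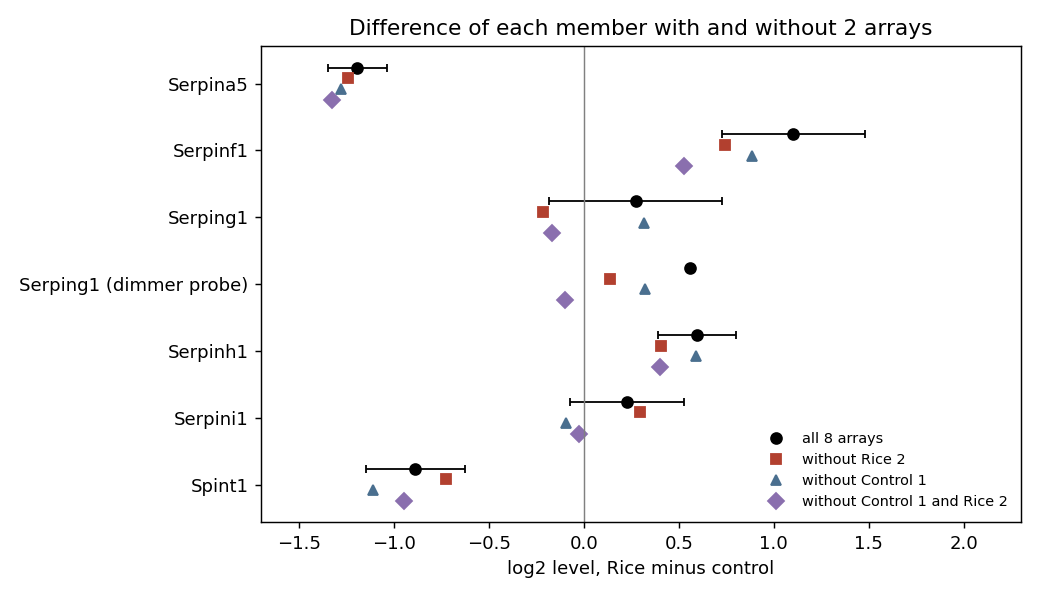
Log2 difference, Rice minus control (x axis), of the 7 probes of the 6 tested members, with all 8 arrays (black circles, with the standard error of the limma fit for the probe that stands for the gene) and without Rice 2, control 1 or both. Serpina5 and Spint1 lie below 0 and Serpinf1 and Serpinh1 above 0 in every subset. For all of these but Spint1 this was bound to hold, since their groups do not overlap. The brighter probe of Serping1 moves from 0.27 to -0.21 without Rice 2.

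These 3 serpins were highest on the array where the meningeal markers were highest. Over its own control mean, the meningeal marker mean was 3.31 log2 units higher in Rice 2, Serpinf1 2.18, Serping1 1.73 and Serpinh1 1.16. In Rice 1, where the marker mean was 0.06 over its control mean, Serpinf1 was 0.77 and Serpinh1 0.23 higher than their control means, while Serping1 was -0.43. The markers were split there. Col1a2 (1.46), Col3a1 (-0.83) and Lum (-2.83) were above every control, Slc6a13 (-1.51) was below every control, and the others lay within the control range. Control 2, with the highest marker mean of the controls (0.74), had Serpinf1 at 0.23 and Serpinh1 at 0.22. Its marker mean rested on Igf2 (5.07), Igfbp2 (1.96) and Fmod (3.30), with Col1a2 (1.01), Col3a1 (-1.11) and Slc6a13 (-1.39) near the other controls. The choroid plexus marker Ttr was high there too (7.62). Igf2, Igfbp2, Fmod and Ttr were likewise high in Rice 3 and Rice 4, so the marker mean is not a measure of meninges alone. Rice minus control, the marker mean differed by 1.32 log2 units, by 0.66 without Rice 2 and by 0.48 without Rice 2 and control 1. Each of the 9 tested meningeal markers was well above background on all 4 Rice arrays and on 3 or 4 control arrays. The 6 tested of 9 choroid plexus markers had mean levels of -2.03 to 3.76 in Rice and -3.06 to 3.60 in control cortex, and Clic6, Kl and Slc4a5 were not bright enough to be tested. Of the red blood cell markers 3 of 5 were tested, with mean levels of -0.65 to 0.65 in Rice and -1.29 to -0.67 in control cortex. The 9 microglial markers had mean levels of 0.61 to 0.80 in Rice and 0.44 to 0.53 in control cortex. Their differences were split, with 6 above 0 and 3 below, from -0.09 for C1qb to 0.80 for Itgam and a median of 0.07. Mean levels of astrocyte, endothelial, mural cell and oligodendrocyte markers overlapped between the groups. The part of these markers in the serpin differences was not tested.

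**Figure D3:**
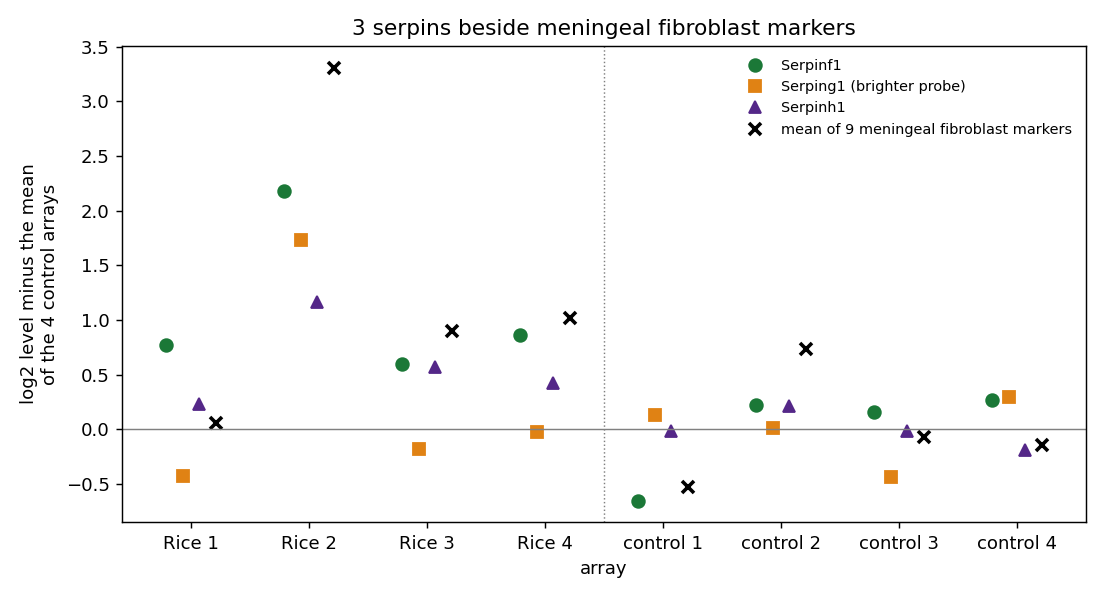
Log2 level of each array (x axis) minus the mean of the 4 control arrays (y axis) for Serpinf1, Serping1 and Serpinh1, and for the mean of 9 meningeal fibroblast markers. Rice 2 has the highest value of all 4 series, from 1.16 for Serpinh1 to 3.31 for the marker mean.

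Serpini1 encodes neuroserpin, the inhibitor of tissue plasminogen activator that neurons secrete. It measured 2.64, 2.44, 2.70 and 2.83 in Rice animals, against 1.46, 2.72, 2.83 and 2.70 in controls. All arrays lay within a narrow band except control 1, which was lower. The log2 difference of 0.23 (SE 0.301) became -0.10 without control 1, where the means were 2.65 ± 0.16 in Rice (SD, n = 4) and 2.75 ± 0.07 in control cortex (SD, n = 3). Serpina3n, a rodent relative of antichymotrypsin that reactive astrocytes secrete in mice, was not well above background on any array. Its measured signal was -6.67 to -5.56 in Rice and -7.22 to -6.30 in control cortex, and no difference is drawn from it. The Serpina3 genes of rodents are a cluster of close copies, so this probe may not read 1 gene alone.

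In the order of genes on the RefSeq assembly, Serpina5 lies next to Serpina4 and within the run of Serpina genes that ends with Serpina3n. From Serpina10 to Serpina3n this run holds 23 genes, of which 3 were tested. Serpina4, kallistatin, measured -1.99, -1.04, -1.05 and -1.97 in Rice animals and -0.60, -1.38, -1.16 and -1.36 in controls, with overlapping groups and a log2 difference of -0.39 (SE 0.294, adjusted p = 0.589 by limma). Serpina11 measured -2.58, -2.84, -2.55 and -2.17 in Rice animals and -3.18, -3.51, -3.21 and -3.19 in controls. Every Rice value was above every control value, the opposite order to Serpina5, and the log2 difference of 0.74 (SE 0.162) did not pass (adjusted p = 0.118 by limma). It passed without control 1 and Rice 2 together (0.87, adjusted p = 0.0375 by limma), and was 0.27 (adjusted p = 0.563 by limma) with normexp correction and 75th percentile scaling.

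Of the 47 other serpin genes on the assembly, 20 had a probe and 9 were tested. None was called by limma, 2 had an unadjusted p under 0.05, both higher in Rice cortex, and the share of all genes at that level was 10.6%. The median log2 difference of the 9 was 0.43, beside -0.03 for all genes. Only 5 of the 9 were well above background on all 8 arrays. Serpinf2, Serpinb1a, Serpinb7 and Serpinb9 entered through the Rice group alone, all with differences above 0, and Serpinb7 is itself the median gene. Nothing is therefore read from that median. Serpinf2, antiplasmin, had a difference of 0.97 (SE 0.338, adjusted p = 0.35 by limma) and was well above background on 4 Rice arrays and 2 control arrays. That difference was 0.64 without control 1 and 0.0025 with normexp correction and 75th percentile scaling. Serpinb1a, an inhibitor of neutrophil proteases, was well above background on 4 Rice arrays and 1 control array, and so entered through the Rice group. Its measured difference was 1.20 (SE 0.733), with groups that overlapped.

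The other Kunitz-domain genes tested were 4 of 15, and none was called or had an unadjusted p under 0.05 in limma. Spint2, the close relative of Spint1, measured -2.24, -1.89, -1.69 and -1.49 in Rice animals and -2.10, -1.42, -3.18 and -2.54 in controls. Its log2 difference was 0.49 (SE 0.359, adjusted p = 0.588 by limma), with overlapping groups, and 0.19 without control 3. That of Spint1 was -0.89. Tfpi, the tissue factor pathway inhibitor, had -0.20 (SE 0.151, adjusted p = 0.588), and the amyloid precursor App, whose longer forms carry a Kunitz domain, had -0.01. Proteases that HAI-1 acts upon were little represented: of 11 genes of HGF activation and matriptase, 2 were tested and none was called by limma. An unadjusted p under 0.05 in limma was found for 1, Hpn, beside 10.6% of all genes tested. This gene entered through the Rice group alone. Hpn, hepsin, measured -4.22 to -4.06 in Rice cortex and -5.61 to -4.63 in control cortex, where 1 of 4 arrays was well above background. Its log2 difference of 0.77 (SE 0.216) did not pass (adjusted p = 0.228 by limma), passed without control 1 (0.55, adjusted p = 0.0132) and was -0.0085 with normexp correction and 75th percentile scaling. Prss8, prostasin, had -0.30 (SE 0.287, adjusted p = 0.609 by limma), and -0.015 without control 1.

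Among coagulation and fibrinolysis genes 11 of 30 were tested. None was called by limma. An unadjusted p under 0.05 in limma was found for 3, of which 2 were higher and 1 lower in Rice cortex, beside 10.6% of all genes tested. Prss12, the neuronal protease neurotrypsin, measured 0.94, 1.54, 0.79 and 0.87 in Rice animals and 0.33, 0.03, 0.09 and -0.11 in controls. The groups did not overlap, and the log2 difference of 0.95 (SE 0.188) did not pass (adjusted p = 0.0843 by limma). It passed without control 1 (1.03, adjusted p = 0.0339 by limma) and with the array median as the scale (1.02, adjusted p = 0.0413). Without any other single array it did not pass, and it was 0.78 (adjusted p = 0.0952 by limma) without Rice 2, its highest array. With the replicate number as a block the adjusted p was 0.282 by limma. Pros1, protein S, the cofactor of activated protein C that Serpina5 restrains, had a difference of 1.16 (SE 0.402, adjusted p = 0.342 by limma). It was well above background on 4 Rice arrays and 2 control arrays, and so entered through the Rice group alone. Its difference was -0.015 with normexp correction and 75th percentile scaling. F8, coagulation factor VIII, was the lower gene, at -0.42 (SE 0.158, adjusted p = 0.392). Procr, the receptor of protein C, had 0.48 (SE 0.284, adjusted p = 0.567), with its highest level, -1.56, in Rice 2 and every other array between -3.13 and -2.73. Plat, the plasminogen activator that neuroserpin inhibits, had 0.59 (SE 0.558, adjusted p = 0.609), and was -5.24 in control 1 and -2.91 to -2.52 elsewhere. The list's median log2 difference was 0.27, beside -0.03 for all genes tested. Of its 11 tested genes, 8 were well above background on all 8 arrays, and Pros1, Plat and F2rl1 entered through the Rice group alone. Vtn, the median gene, measured 2.77 in Rice 2, 0.50 to 0.69 on other Rice arrays and 0.56 to 1.20 on control arrays. Nothing is therefore read from that median.

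Of the complement genes, the cascade that Serping1 limits, 12 of 21 were tested and none was called by limma. The median log2 difference was 0.31, beside -0.03 for all genes tested, with 9 above 0 and 3 below. It lay between Masp1 (0.16), at -2.08 in control 1 and -0.27 to -0.01 on other controls, and C2 (0.46), highest in Rice 2. An unadjusted p under 0.05 in limma was found for 1 gene, beside 10.6% of all genes tested. Of the 12, 10 were well above background on all 8 arrays, and C4a (1.19) and C3ar1 (-0.17) entered through the Rice group alone. Nothing is therefore read from that median. C1qc, a chain of the C1q recognition molecule, had 0.59 (SE 0.217, adjusted p = 0.377 by limma), beside 0.07 for C1qa and -0.09 for C1qb. Cfb, complement factor B, measured -0.93, 0.53, -0.63 and -0.64 in Rice animals and -1.01, -1.18, -1.24 and -0.94 in controls, with no overlap, Rice 2 on top and a difference of 0.68 (SE 0.299, adjusted p = 0.482) that was 0.36 without Rice 2. C1s, a protease that the C1 inhibitor traps, had 0.85 (SE 0.490, adjusted p = 0.562), with -2.32 in control 1 and at least -0.50 on the other control arrays.

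Collagens and collagen-processing genes, which bear on the chaperone Serpinh1, gave 11 tested of 26. None was called by limma, none had an unadjusted p under 0.05, and the median log2 difference was 0.19, beside -0.03 for all genes tested. Col1a2, of type I collagen, measured 1.46, 5.28, 1.82 and 1.90 in Rice animals and 1.09, 1.01, 0.69 and 0.94 in controls. Every Rice value exceeded the controls and Rice 2 lay far above the rest, so the difference of 1.68 had an SE of 0.782 (adjusted p = 0.507 by limma). Without control 1 and Rice 2 it was 0.85 and passed (adjusted p = 0.0413). Col1a2 is also one of the 9 meningeal markers. Fkbp10, another collagen chaperone, had 0.82 (SE 0.383, adjusted p = 0.508), and 0.44 without control 1, 0.24 without control 1 and Rice 2 and 0.38 with normexp correction and 75th percentile scaling. The enzymes P4ha1, Plod1 and Plod3, which hydroxylate collagen in many cell types, had 0.11, 0.19 and 0.12. P3h1, another collagen hydroxylase, had -0.28, and Ppib and Sparc of the same list had -0.11 and -0.13. Of the 11 genes, 8 were above 0 and 3 below.

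**Figure D4:**
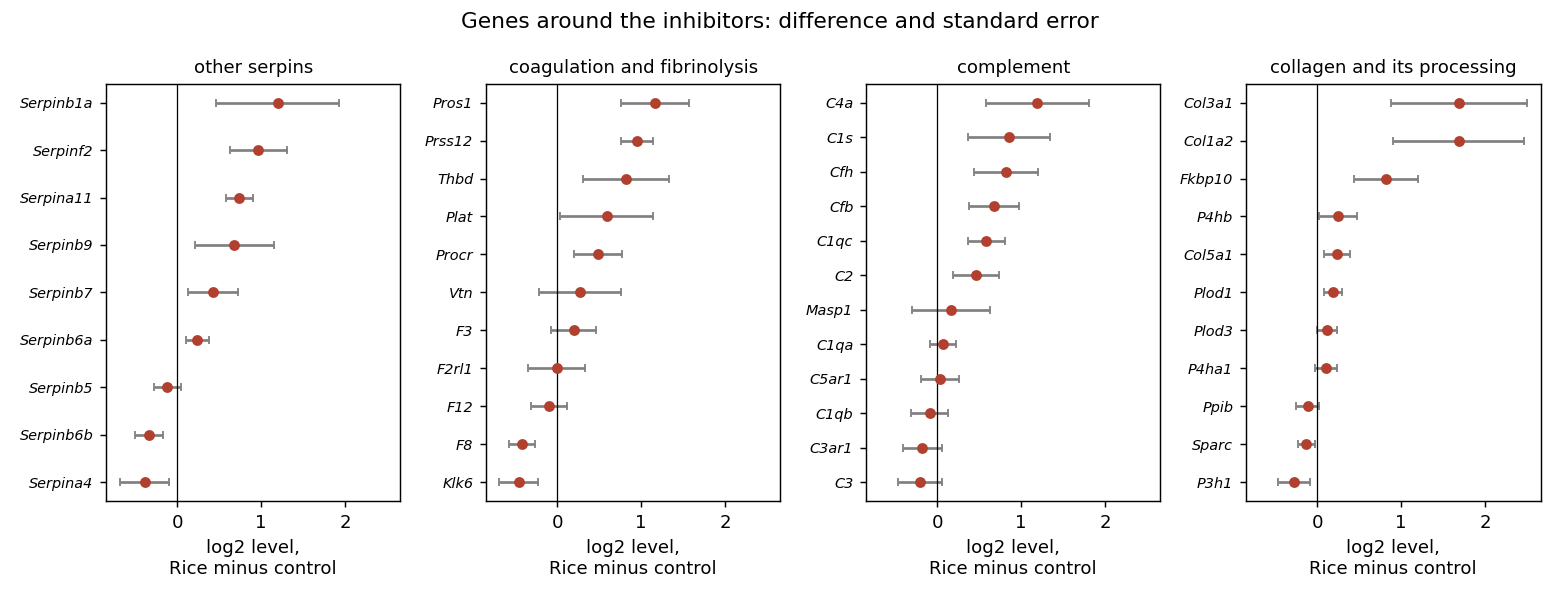
Log2 difference, Rice minus control (x axis), with the standard error of the limma fit for the tested genes of 4 lists: other serpins (9), coagulation and fibrinolysis (11), complement (12) and collagen with its processing (11). No gene of these lists was called with all 8 arrays, and the errors are widest for Col3a1 (SE 0.807), Col1a2 (SE 0.782) and Serpinb1a (SE 0.733).

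Protease inhibitors of other families gave 13 tested genes of 31. None was called by limma, none had an unadjusted p under 0.05, and their median log2 difference was 0.01. Wfdc1 had 0.54 (SE 0.249, adjusted p = 0.503 by limma) and Pebp1 -0.33 (SE 0.156, adjusted p = 0.516). Every Rice value of Pebp1 was below the controls, but its difference was -0.18 without control 1, -0.0068 with quantile scaling and -0.096 as the mean of its probes. The metalloprotease inhibitors Timp1, Timp2 and Timp3 had 0.35, -0.11 and 0.24, and the cysteine protease inhibitor Cst3 had -0.18, with overlapping groups for each.

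The genes most like each member across the 8 arrays were sought among the 5931 others with a symbol, by the Pearson correlation of levels, as a description of arrays that share a slide within each group. For Serpina5 these were Pgap2 (0.974), Syngr1 (0.969) and Adcy10 (0.963), with log2 differences of -0.69, -0.70 and -2.15. For Spint1 they were Ptprz1 (0.973), Cartpt (0.960) and Pmvk (0.958), with -0.18, -1.20 and -0.27. Serpinf1 was most like Tspan8 (0.987), Mfap4 (0.980) and Tagln2 (0.972), and Mfap4 measured 0.30 in Rice 2 and between -2.75 and -1.37 elsewhere. Serping1 was most like Emp3 (0.968), Napsa (0.966) and Nr1h3 (0.965), all highest in Rice 2, where Emp3 measured 2.04 against at most -0.13 on other arrays. Serpinh1 was most like Rilpl2 (0.984), Lrrfip1 (0.981) and Megf6 (0.978), of which Megf6 measured 0.25 in Rice 2 and -1.50 or less elsewhere. Serpini1 was most like Dr1 (0.993), Wsb1 (0.991) and Btbd1 (0.990), each lowest in control 1, where Wsb1 measured -1.14 and 0.15 or more elsewhere. All these genes were picked for a high Pearson correlation over 8 arrays. Their Spearman rank correlations ran from 0.667 (Btbd1) to 0.976, with 0.738 for Napsa and 0.762 for Syngr1.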

How the data were processed

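Total RNA of 8 cortices was labelled with Cy3 and hybridised, 1 animal per array. The deposited scanner files hold, per the file headers, a processed intensity for each spot, background-subtracted by Agilent Feature Extraction 9.5.3.1, with spot and background intensities and flags. The authors' deposited series table holds log2 values, which correlated at 0.9997 or higher with the scanner values centred per probe, and served as an alternative. Its column medians were 0.48 for control 1 and -0.05 to 0.04 for the others. Control spots and outlier-flagged spots were left out, leaving 87 missing probe values, and log2 processed intensity was scaled to each array's 75th percentile. Accessions without version gave 26.2% of 41012 probes a symbol on GRCr8. Probes entered where 1 group or both had them well above background on all of its arrays, and the brightest stood for its gene.

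Groups were compared with limma 3.58.1 (R 4.3.3) and Benjamini-Hochberg adjustment over all 21677 genes. The fit was also run on simulated arrays with independent noise. These held no outlying array and no slide effect, so that run says nothing about either. Members, gene lists and alternatives were chosen with earlier results of these data known. Named were all members, each list's called genes or its 2 with the smallest unadjusted p, and the 3 genes most like each member. Any other gene was named with its values known. Normexp used the median spot intensity.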

Additional observations from a re-analysis of the deposited data

Results flagged for a closer look

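Within a group of 4, an array was singled out where its gap to the nearest other array was too large a part of the group's range by Dixon's critical value. Chance singles out about 1 in 20 groups, and 42 groups were examined. Rice 2 was singled out as high in Serpinf1 (1.21) and Col1a2 (5.28). Control 1 was singled out as low in Serpinf1 (-1.62), Serpini1 (1.46) and Fkbp10 (-3.60). Control 2 was low in Serpina11 (-3.51), where the other controls were at -3.21 to -3.18, and Rice 1 was high in Hpn (-4.06).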

How the results depend on the processing

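The 6 members' differences were computed under 20 alternatives. Serpina5, Serpinf1, Serpinh1 and Spint1 kept their sign in all 20, with ranges of -1.33 to -0.87, 0.53 to 1.27, 0.40 to 0.72 and -1.11 to -0.60. Many of the 20 could not have changed it. Other filters on dim probes, another variance estimate in limma, the mean of a gene's probes and the replicate block left the differences of these members unchanged. Leaving out or weighting arrays cannot turn the sign where the groups do not overlap, as for Serpina5, Serpinf1 and Serpinh1. Serping1 and Serpini1 changed sign in 3 each, with ranges of -0.21 to 0.51 and -0.10 to 0.36. Serpina5 moved by more than the spread between animals after normexp correction, to -0.93 with 75th percentile and -0.87 with quantile scaling. The counts of members called are given for completeness and test nothing, since this contrast helped to choose them.

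With array weights 1318 genes were called, 2 of them members (Serpina5 and Spint1), 1 other serpin, 2 coagulation genes, 1 HGF or matriptase gene and 2 other protease inhibitors. Without control 1 and Rice 2 there were 706 genes, 3 members (Serpina5, Serpinf1 and Spint1), 1 other serpin, 2 coagulation genes, 1 HGF or matriptase gene and 1 collagen gene. With the array median 0 members and 1 gene of the coagulation list, Prss12, were called by limma. The 2 coagulation genes called under other settings were F8 and Prss12, and Prss12 is a neuronal protease kept in that list. Leaving out single arrays gave 116 to 793 genes, 0 to 2 members, 0 to 2 coagulation genes and 0 to 1 HGF or matriptase genes, with 793 genes and the highest list counts without control 1. The cause was not tested. Hpn and Pros1 turned to -0.0085 and -0.015, and Serpinf2 was 0.0025, with normexp and 75th percentile scaling.

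Animals with the same number deviated together with correlations of -0.16 to 0.026, so the numbers do not pair them. With the replicate number as a block 69 genes and 0 members were called by limma. Slide could not be fitted as a block, since each holds 1 group. Dim probes limit Serpina3n, and 4 arrays a group limit all values.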
